A study of Mus musculus with 31 samples.

Results

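Nphs1, Cd2ap, Synpo, Podxl, Ptpro and Wt1 are genes by which the podocyte, the epithelial cell that covers the outside of the glomerular capillaries of the kidney, is commonly recognised. The probes taken were those whose single gene name in the platform annotation was one of these 6. There were 7 of them among 23040 probes on the array, and the genes were 6 of 15096 with at least 1 probe of a single name. Synpo had 2 probes, numbered 5467 and 18174, and each other gene had 1 (Nphs1 20266, Cd2ap 18343, Podxl 1936, Ptpro 5420, Wt1 7723).

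The series compared RNA of 31 BXD/TyJ mouse strains, inbred lines whose genomes recombine those of C57BL/6J and DBA/2J, with RNA of C57BL/6J on spotted glass arrays, with 1 array per strain. Each array held a pool of RNA from 3 male mice aged 8 weeks in the red dye (Alexa Fluor 647) and the common C57BL/6J RNA, from males of the same age and with a spike-in mix, in the green dye (Alexa Fluor 555), and dyes were not swapped. By strain number the arrays fall into BXD33-42 (7 strains) and BXD1-32 (24 strains), a division taken from background knowledge of a later and an earlier breeding of the panel. A pool on 1 array gives a strain no spread of its own, so strain and array cannot be told apart, and the p-values below measure the spread between these arrays.

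The values are log ratios. The labels do not state base or direction; log2 of strain over C57BL/6J is likely, from the convention of the named software and the dyes, and a ratio above 0 is read here as higher in the strain. The sample titles name kidney, whereas the source and tissue fields name whole brain. A ratio holds no level, so the podocyte genes cannot show which tissue was used, and fewer podocytes cannot be told apart from less RNA per podocyte. The arrays correlated with one another at a median r of 0.363 (range -0.0926 to 0.808 over all probes). BXD38 and BXD15 stood apart, with mean correlations of 0.150 and 0.191 with the other arrays, against 0.319 for the next strain, BXD9.

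As background, podocytes send out interlocking foot processes that are bridged by the slit diaphragm, the last part of the filter between blood and urine. Nphs1 encodes nephrin, the adhesion protein that spans the slit, and Cd2ap encodes an adaptor that ties nephrin to the actin cytoskeleton. Synpo encodes synaptopodin, an actin-associated protein of foot processes that is also found in neurons. Podxl encodes podocalyxin, the sialoprotein that coats the apical surface and is also made by endothelium, and Ptpro encodes a receptor tyrosine phosphatase of that surface known as GLEPP1. Wt1 encodes a zinc finger transcription factor that maintains the podocyte state and is known to bind regulatory DNA of Nphs1 and Podxl.

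Among the 6, Nphs1 had the highest correlation with Wt1, and the lowest correlation of any pair was that of Cd2ap and Ptpro. Neither passed the test by Pearson r given below. No promoter window of Podxl or Wt1 was in the sequence data used, and that of Synpo was left out. The promoter windows of Nphs1, Cd2ap and Ptpro are shown. They run from 250 bases before to 50 bases after the start of the gene, 5′ to 3′ on the gene's strand, from RefSeq on build GRCm38.p6. Capitals mark matches to the 9-base motif GNGTGGGNG or its reverse complement CNCCCACNC, modelled on the GC-rich element that WT1 and the EGR factors bind; both strands were searched. The windows lie at chr7:30459808-30460107 (plus strand) for Nphs1, chr17:42876375-42876674 (minus strand) for Cd2ap and chr6:137252049-137252348 (plus strand) for Ptpro.
Nphs1: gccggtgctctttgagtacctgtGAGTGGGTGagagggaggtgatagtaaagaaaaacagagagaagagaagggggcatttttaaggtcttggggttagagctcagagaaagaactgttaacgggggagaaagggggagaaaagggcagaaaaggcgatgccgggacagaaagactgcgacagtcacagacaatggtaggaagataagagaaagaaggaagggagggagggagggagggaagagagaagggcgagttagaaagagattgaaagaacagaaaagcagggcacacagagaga
Cd2ap: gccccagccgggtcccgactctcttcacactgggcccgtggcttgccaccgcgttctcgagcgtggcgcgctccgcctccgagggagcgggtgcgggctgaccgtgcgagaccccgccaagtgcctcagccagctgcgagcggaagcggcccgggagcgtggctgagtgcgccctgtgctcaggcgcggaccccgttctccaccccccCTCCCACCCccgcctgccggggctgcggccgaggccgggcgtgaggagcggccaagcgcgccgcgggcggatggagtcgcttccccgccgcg
Ptpro: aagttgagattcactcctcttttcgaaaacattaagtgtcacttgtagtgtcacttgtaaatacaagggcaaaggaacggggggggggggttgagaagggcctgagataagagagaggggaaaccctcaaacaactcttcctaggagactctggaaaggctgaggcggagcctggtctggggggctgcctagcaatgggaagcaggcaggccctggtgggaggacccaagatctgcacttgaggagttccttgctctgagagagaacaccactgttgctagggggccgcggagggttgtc
The match in Nphs1 (GAGTGGGTG) began 227 bases before the start and that in Cd2ap (CTCCCACCC) 42 bases before it, while these letters are not in the Ptpro window. The motif was present in 14.3% of the 32851 windows of the table, so a match is a description and not a site. GC content was 49.7% for Nphs1, 77.0% for Cd2ap and 54.7% for Ptpro, beside a median of 52.7% over all windows.

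The first question was how the podocyte genes of the BXD strains stood against C57BL/6J. Podxl, Cd2ap and Wt1 averaged slightly higher in the strains, 1 of the 2 Synpo probes averaged clearly lower, and Nphs1, Ptpro and the second Synpo probe did not pass the test. The mean over 31 strains was tested against 0 with limma over all 23040 probes, with Benjamini-Hochberg adjustment and a threshold of 0.05, and 4 of the 7 probes passed (3 higher, 1 lower). Of all probes, 57.5% passed (27.2% higher and 30.3% lower), so 4 of 7 is near the share on the whole array. The test takes C57BL/6J as 1 sample without spread, and it includes any difference between the dyes.

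**Figure D1:**
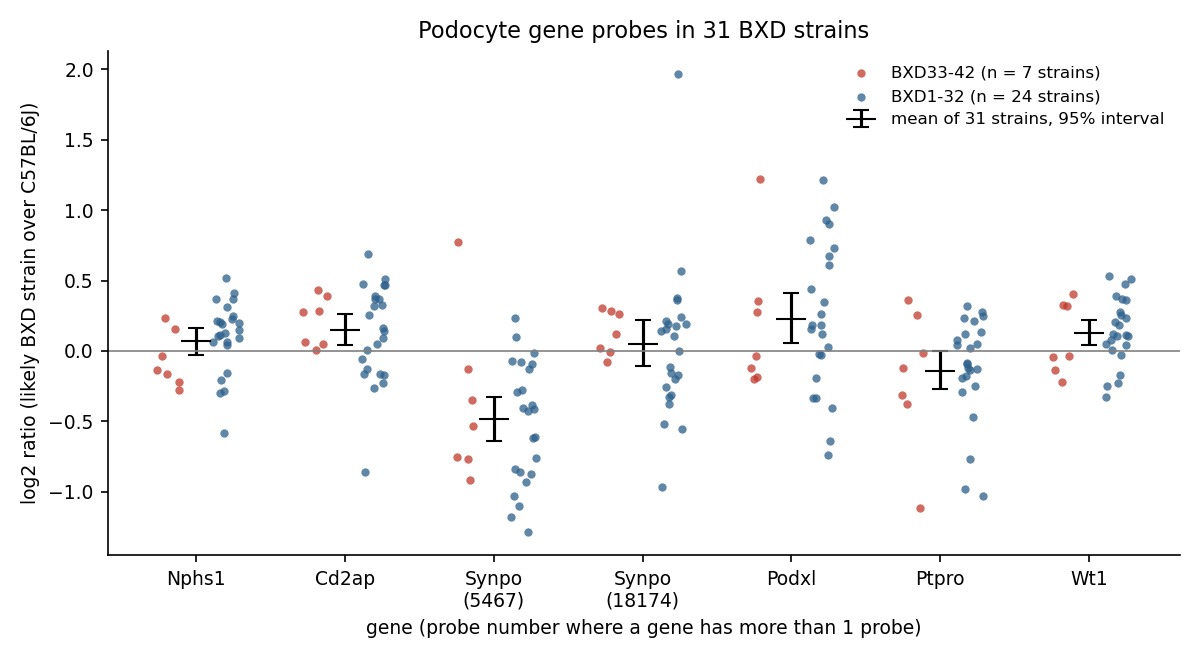
Log2 ratio (vertical axis, likely BXD strain over C57BL/6J) of each probe of the 6 podocyte genes (horizontal axis). Points are strains, red for BXD33-42 (n = 7) and blue for BXD1-32 (n = 24), and black bars give the mean of all 31 strains with its 95% interval. Synpo probe 5467 lies below 0 in 28 of 31 strains, and both sets of strains overlap for every probe.

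Among the slit diaphragm genes, Nphs1 had a log2 ratio of -0.58 in its lowest strain (BXD15), a median of 0.11 and 0.52 in its highest strain (BXD21). It was above 0 in 21 strains and below 0 in 10, within a narrow band: its SD over strains was 0.249, and 10.8% of all probes had a smaller one. Its mean against C57BL/6J was 0.07 ± 0.0475 (SE, n = 31; limma adjusted p = 0.236). Cd2ap had -0.86 in BXD15, a median of 0.17 and 0.69 in BXD9. BXD15 stood well below the next strain, BXD29 at -0.26, and 23 of 31 strains were above 0. The mean of Cd2ap was 0.15 ± 0.0572 (SE, n = 31; limma adjusted p = 0.0267). BXD15 thus held the lowest value of both slit diaphragm genes, on an array that stood apart from most others.

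Synpo gave different pictures by probe. Probe 5467 had -1.29 in BXD16, a median of -0.42 and 0.77 in BXD38. It was below 0 in 28 of 31 strains and below -0.5 in 15. Its mean was -0.48 ± 0.0808 (SE, n = 31; limma adjusted p = 5.82e-06). Probe 18174 had -0.96 in BXD21, a median of 0.11 and 1.97 in BXD31, with 17 strains above 0 and 14 below. The BXD31 value stood far above the next strain, BXD8 at 0.57, and the mean of this probe was 0.05 ± 0.0838 (SE, n = 31; limma adjusted p = 0.606). Without BXD31, a setting chosen after seeing the data, this mean was -0.01. The gene mean of the 2 probes ran from -0.79 in BXD21 through a median of -0.21 to 0.57 in BXD31, was below 0 in 25 strains and averaged -0.22 (limma over all gene means, adjusted p = 0.00255). At the gene level 4 of 6 genes passed, beside 55.8% of all genes (26.5% higher and 29.3% lower).

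The strain patterns of the 2 Synpo probes showed no relation past the test. Their Pearson r over 31 strains was -0.0254 (permutation p = 0.892) and their Spearman rho was 0.102 (permutation p = 0.585). Without the 2 strains farthest from the median of the first probe, r was -0.0797. Such disagreement was common on this array: over the 902 genes with exactly 2 probes the median r was 0.0196, with a 10th to 90th percentile range of -0.314 to 0.371. The 2 Synpo means were 0.54 apart on the log2 scale, more than for 81.6% of those genes, whose median difference was 0.25. The 2 Synpo probes and the Wt1 probe were annotated by sequence records that are not RefSeq transcripts. Their match to RefSeq therefore could not be checked by record, while the other 4 probes carried RefSeq transcripts of their gene. Relations of Synpo with other genes below rest on the mean of its 2 probes unless 1 probe is named.

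Of the apical surface genes, Podxl had the widest SD of the 7 probes, 0.522, and 77.2% of all probes had a smaller one. Its log2 ratio was -0.74 in BXD8, the median was 0.18, and it reached 1.22 in both BXD33 and BXD1. Podxl was above 0.5 in 9 strains and below -0.5 in 2. Its mean was 0.23 ± 0.0905 (SE, n = 31; limma adjusted p = 0.0273). With either top strain left out the mean was 0.20, at an adjusted p of 0.0510 without BXD1 and of 0.0504 without BXD33. Over gene means the number of podocyte genes called was 3 without BXD1 and 4 without BXD33. Ptpro had -1.12 in BXD39, a median of -0.09 and 0.36 in BXD36. A tail of 4 strains lay below -0.5 and no strain above 0.5. The mean of Ptpro was -0.14 ± 0.0694 (SE, n = 31; limma adjusted p = 0.0860).

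Wt1, the transcription factor, was the steadiest of the 7 probes, with an SD of 0.238 below which lay 8.16% of all probes. Its log2 ratio was -0.33 in BXD32, the median was 0.11, and it was 0.54 in BXD9, with 22 strains above 0 and 9 below. Its mean was 0.13 ± 0.0459 (SE, n = 31; limma adjusted p = 0.0156). The widest gap between ordered strains, with at least 5 strains on each side, was measured for each probe to see whether strains parted into groups. The widest gap of Podxl lay between 0.44 and 0.61, with 22 strains below and 9 above it. Relative to the SD, the gaps of the 7 probes were 0.183 (Synpo probe 18174) to 0.395 (Wt1), around the median of 0.325 over all probes.

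**Figure D2:**
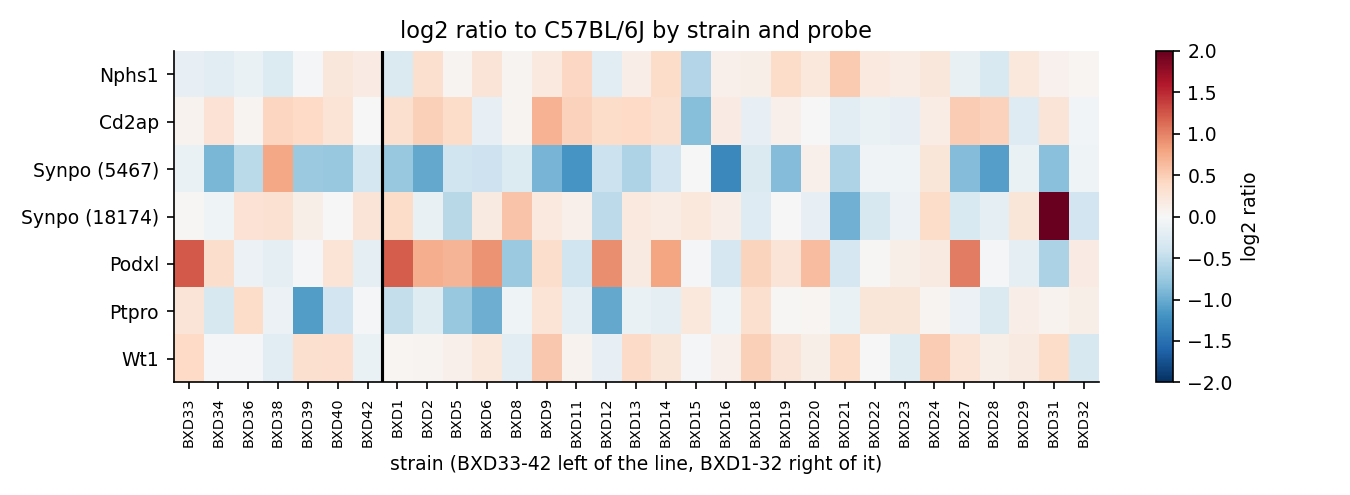
Log2 ratio to C57BL/6J (colour, red above 0 and blue below) of the 7 probes (rows) in the 31 strains (columns), with BXD33-42 left of the line and BXD1-32 right of it. Columns mix red and blue cells, and BXD31 holds both the deep red cell of Synpo probe 18174 (1.97) and a blue cell of Podxl (-0.64).

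BXD33-42 and BXD1-32 were then compared. For all 7 probes their values overlapped, and 0 of 7 passed limma's test at the adjusted threshold, beside 0.00868% of all probes (2 of 23040). An unadjusted limma p under 0.05 was reached by 0 of 7, beside 2904 of 23040 probes. Nphs1 averaged -0.06 ± 0.192 in BXD33-42 (SD, n = 7) and 0.10 ± 0.254 in BXD1-32 (SD, n = 24), a difference of -0.17 (95% interval -0.39 to 0.05; limma adjusted p = 0.558). Podxl averaged 0.19 ± 0.506 in BXD33-42 and 0.25 ± 0.536 in BXD1-32, a difference of -0.06 (95% interval -0.49 to 0.37; limma adjusted p = 0.940). The other 5 probes differed by -0.07 (Ptpro) to 0.13 (Synpo probe 5467), with adjusted p of 0.827 to 0.907. In simulated data of this design 38.0% of changes of 0.6 and 0% of changes of 0.3 on the log2 scale were recovered, so differences of the sizes seen here would mostly be missed with 7 against 24 arrays. With the mean of the spots at the same place of the array's repeat removed from each probe, the difference was 0.27 for Cd2ap (unadjusted p = 0.0430, limma adjusted p = 0.495) and -0.28 for Podxl (unadjusted p = 0.0496, limma adjusted p = 0.510).

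The next question was whether the podocyte genes rose and fell together over strains. No pair did so past the test: the 15 pairs of gene means split into 8 with r above 0 and 7 below, with a mean r of -0.016 and a median of 0.0544. By Pearson r, 0 of 15 pairs had an unadjusted permutation p under 0.05, beside 18.2% of all 113937060 pairs of genes on the array, whose mean r was 0.003 and whose 10th to 90th percentile ran from -0.337 to 0.347. An absolute r of 0.355 was needed at that threshold with 31 strains. Spread between spots limits what such pairs can show. After removal of spot and array means, the 232 Gapdh spots still had a median SD over strains of 0.447. The 2 probes of 1 gene correlated at a median r of only 0.0196, so a shared change of the podocyte genes could be missed. Adjusted p-values below are Benjamini-Hochberg over all 90555 relations of a podocyte gene with any other gene.

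The highest pair was Nphs1 and Wt1, the slit diaphragm gene and its transcription factor, with r = 0.332 (permutation p = 0.0679, adjusted p = 0.344) and rho = 0.348 (permutation p = 0.0555). Without the 2 strains farthest from the median of Nphs1, r was 0.325. The lowest pair was Cd2ap and Ptpro, with r = -0.351 (permutation p = 0.0547, adjusted p = 0.313) and rho = -0.450 (permutation p = 0.0120), and r was -0.437 without BXD9 and BXD15. Synpo and Ptpro had r = 0.299 (permutation p = 0.101, adjusted p = 0.404) and rho = 0.441 (permutation p = 0.0135), and r was 0.321 without BXD31 and BXD38. Cd2ap and Synpo had r = -0.269 (permutation p = 0.147, adjusted p = 0.463) and rho = -0.428 (permutation p = 0.0180), and r was -0.189 without BXD9 and BXD15. By rank the last 3 of these pairs had an unadjusted permutation p under 0.05, in both directions. The share of all gene pairs past that threshold by rank was not measured. By Pearson r it was 18.2%, and no rho was adjusted, so the 3 pairs are a description only.

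The slit diaphragm partners Nphs1 and Cd2ap had r = 0.0638 (permutation p = 0.733, adjusted p = 0.893) and rho = -0.166 (permutation p = 0.369). In BXD15 both were at their lowest, whereas in BXD28 Nphs1 was at -0.30 and Cd2ap at 0.47. Without these strains r was -0.270. The apical pair Podxl and Ptpro had r = -0.294 (permutation p = 0.109, adjusted p = 0.413) and rho = -0.218 (permutation p = 0.240). The coefficients of the remaining 9 pairs lay between -0.256 (Synpo and Podxl) and 0.202 (Cd2ap and Podxl). With Synpo probe 5467 alone, Cd2ap and Synpo reached r = -0.452 (permutation p = 0.0114), and with probe 18174 alone r was 0.0662. Synpo and Ptpro had r = 0.242 with probe 5467 alone (permutation p = 0.187) and 0.177 with probe 18174 alone (permutation p = 0.326).

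**Figure D3:**
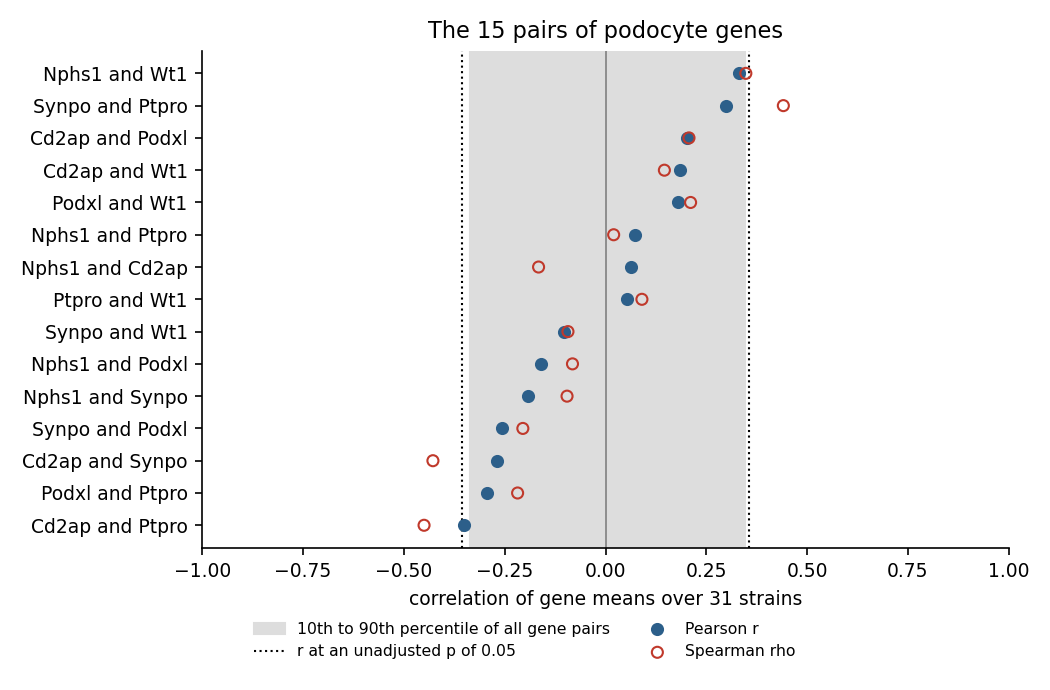
Correlation over 31 strains (horizontal axis) of each of the 15 pairs of podocyte gene means (vertical axis). Filled blue points are Pearson r and open red points Spearman rho, the grey band is the 10th to 90th percentile of all pairs of genes (-0.337 to 0.347), and dotted lines mark an absolute r of 0.355. All Pearson points lie inside the dotted lines, and 3 Spearman points lie outside them.

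Strain by strain, the genes mostly stood on both sides of 0. Genes without any relation would mostly do so too, so these counts are a description only. All 6 gene means were above 0 in 1 strain, BXD24, where they ran from 0.05 for Ptpro to 0.51 for Wt1, and in 0 strains were all 6 below 0. In 4 strains 5 genes were above 0, in 9 strains 4, in 8 strains 3 and in 9 strains 2. The mean of the 6 genes ran from -0.20 in BXD15 to 0.29 in BXD33. Its SD over strains was 0.129, whereas the 6 variances with every covariance at 0 would give 0.144 (a variance ratio of 0.801). The 2 ends show how single genes carried the mean: Podxl at 1.22 in BXD33, with Nphs1 at -0.16 there, and Cd2ap at -0.86 in BXD15, with Ptpro at 0.21.

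Several properties of the arrays moved with single podocyte genes. Places were counted from the probe numbers as repeating every 480 spots, so each probe could be set against the mean of the 47 other spots at its place. Podxl followed those spots with r = 0.756 (permutation p = 2.00e-05; rho = 0.637, permutation p = 0.000230; adjusted p over all probes = 3.40e-05), higher than 97.5% of probes. This r was 0.697 without the 2 strains farthest on the x axis. In BXD33 and BXD1, where Podxl was 1.22, the other spots averaged 0.95 and 0.88. With the mean of its place removed, the SD of Podxl was 0.339 and its mean 0.11 (limma adjusted p = 0.134), so the call was lost. Of all probes, 24.9% followed their place at an adjusted p under 0.05, and of the 7 podocyte probes Podxl did. The next was Nphs1 with r = 0.422 (permutation p = 0.0175; rho = 0.436, permutation p = 0.0147; adjusted p = 0.0653), and r was 0.253 without 2 strains. The other 5 probes had r between -0.222 (Synpo probe 5467) and 0.313 (Ptpro), beside a median of 0.230 over all probes. With place removed, Ptpro at -0.16 passed (limma adjusted p = 0.0335) and Wt1 stood at 0.28. The part of spot place in the podocyte results was otherwise not tested.

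Gapdh, a glycolytic enzyme often used as a constant, had 232 spots, and their array mean was lowest in BXD15, at -1.20. Cd2ap followed it with r = 0.695 (permutation p = 8.00e-05; rho = 0.556, permutation p = 0.00123), and r was 0.464 without the 2 farthest strains. Ptpro ran against it with r = -0.512 (permutation p = 0.00375; rho = -0.442, permutation p = 0.0134), and Podxl with it at r = 0.528 (permutation p = 0.00171; rho = 0.592, permutation p = 0.000540). The 6 genes were set against 9 such array measures in 54 relations, adjusted over all genes and measures (10.1% of which passed). At that adjustment Cd2ap (0.00106), Podxl (0.0304) and Ptpro (0.0380) passed for Gapdh, 3 of 6 genes beside 8.12% of all genes.

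The first principal component of the arrays, which held 20.6% of the variance, correlated with Podxl at r = -0.549 (permutation p = 0.00162; rho = -0.603, permutation p = 0.000500; adjusted p = 0.0225), and 29.4% of all genes passed for it. Ptpro had r = 0.480 with this component (permutation p = 0.00548; rho = 0.520, permutation p = 0.00263; adjusted p = 0.0572), and Nphs1 had r = -0.0114 (permutation p = 0.951). Cd2ap and Ptpro, the lowest pair, had coefficients of opposite sign with both Gapdh and this component, and their own r with the component removed was -0.183 (permutation p = 0.314). The part of these array measures in that pair was not tested.

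**Figure D4:**
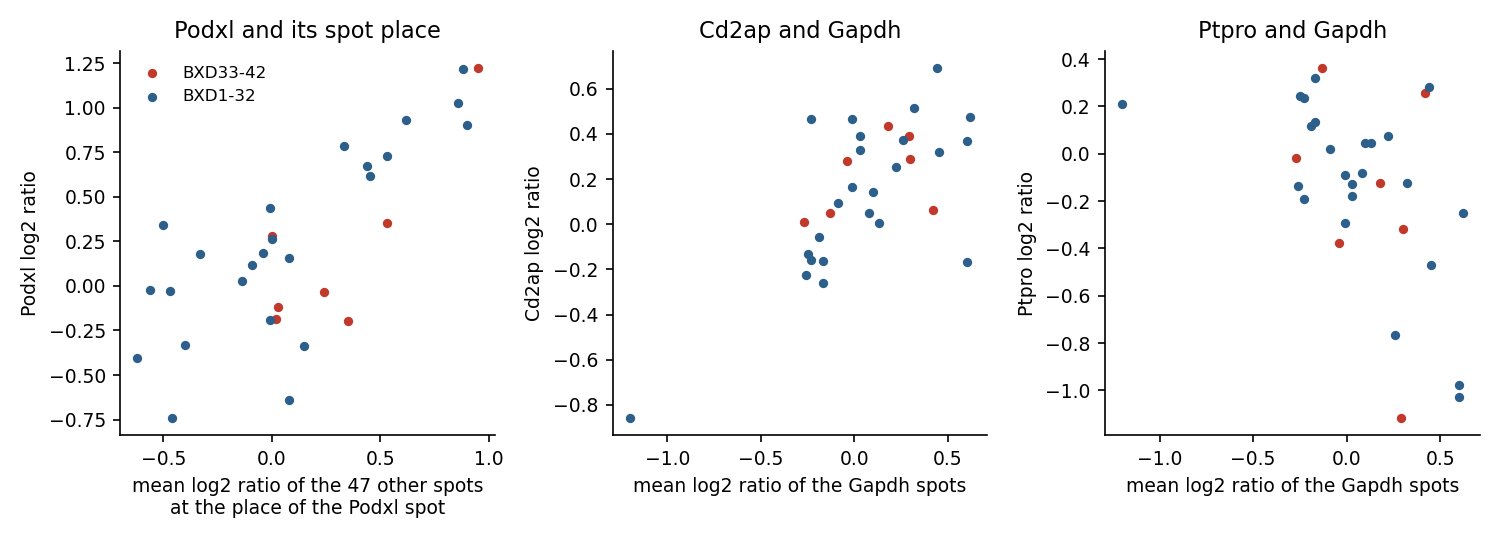
Podxl against the mean of the 47 other spots at its place, and Cd2ap and Ptpro against the mean of the Gapdh spots; all axes are log2 ratios. Points are strains, red for BXD33-42 and blue for BXD1-32. Podxl follows its place (r = 0.756), Cd2ap rises with Gapdh (r = 0.695), with BXD15 alone at the lower left, and Ptpro runs the other way (r = -0.512).

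Marker lists of other cell types were measured beside them; over all genes, 26.5% were called higher and 29.3% lower, and lists this short can be read only as counts. Of proximal tubule markers all 8 were on the array, 4 averaged higher than C57BL/6J and 0 lower (median 0.31), and their mean correlated with Podxl at r = 0.510 (permutation p = 0.00316; rho = 0.487, permutation p = 0.00586; adjusted p = 0.0395, passed by 10.8% of all genes). Here and below the list means were not scaled by gene, so genes of wide spread weigh most. In this list the SD over strains ran from 0.384 (Cubn) to 1.28 (Kap). Of endothelial markers all 9 were measured, with 3 higher and 1 lower. Their mean had r = -0.478 with Ptpro (permutation p = 0.00671; rho = -0.545, permutation p = 0.00167; adjusted p = 0.0584), r = 0.414 with Cd2ap (permutation p = 0.0205; rho = 0.432, permutation p = 0.0158; adjusted p = 0.116) and r = 0.383 with Podxl (permutation p = 0.0319; rho = 0.335, permutation p = 0.0644; adjusted p = 0.154), where 18.4% of all genes passed. Parietal epithelial markers (Cldn1, Cldn2 and Pax8) were higher for 3 of 3, mesangial markers lower for 2 of 4, and neuronal markers split into 2 higher and 2 lower of 6. Glial markers gave 1 higher (Aqp4) and 2 lower (Gfap and Mbp) of 4, and lymphocyte markers (Cd3e and Ptprc) 0 of 2. Whether the RNA of these genes came from the named cell types was not measured, so the counts are not results about those cells. Cd2ap had r = -0.437 with the mean of the neuronal markers (permutation p = 0.0147; rho = -0.485, permutation p = 0.00611; adjusted p = 0.0925), and Ptpro had r = 0.432 with that of the lymphocyte markers (permutation p = 0.0161; rho = 0.458, permutation p = 0.0104; adjusted p = 0.0962). Ratios do not show whether such markers were near 0, and the part of these cell types in the podocyte values was not tested.

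Over all genes on the array, 578 of the 90555 relations with a podocyte gene (0.638%) had an adjusted p under 0.05. They were 324 for Podxl, 149 for Cd2ap, 38 for Nphs1, 35 for Ptpro, 20 for Wt1 and 12 for Synpo, of 15095 each. The genes whose strain pattern was most like a podocyte gene's were not among the other 5. For Nphs1 they were Cx3cl1 (r = 0.725), a chemokine tethered to the membrane, Gpat4 (0.674) and Pa2g4 (0.671). For Cd2ap they were Brd2 (0.789), a bromodomain reader of acetylated histones, Tmem116 (0.736) and Shmt2 (0.727), a mitochondrial enzyme of serine and glycine metabolism. Synpo was nearest to 1500012K07Rik (0.669), the receptor tyrosine kinase Alk (0.610) and Ube2dnl2 (0.599). Wt1 was nearest to Dffb (0.686), a nuclease of apoptosis, Sema6b (0.646) and 4930565N06Rik (0.643). These coefficients are the top of 15095 each, over the same 31 arrays, and are given as a description.

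Of the genes nearest to Podxl and to Ptpro, 2 each had nearby place numbers in the repeat, which need not mean nearby spots on the glass. Podxl, at place 16 of the repeat, was nearest to Cox6a2 (0.868, place 23), a subunit of cytochrome oxidase, Pdha1 (0.825, place 22), a subunit of pyruvate dehydrogenase, and Rabac1 (0.805, place 96). With place means removed these coefficients were 0.430, 0.261 and 0.562. Ptpro, at place 140, was nearest to Fbxw14 (0.699, place 137), the prostaglandin receptor Ptger2 (0.682, place 138) and 2610044O15Rik8 (0.662, place 277), and removal of place means left 0.685, 0.684 and 0.662. The genes running most against the 6 were Oaz3 for Nphs1 (-0.694), Nsmaf for Cd2ap (-0.752), Arl2 for Synpo (-0.666), Abhd5 for Podxl (-0.816), Ubap1 for Ptpro (-0.606) and Tubb1 for Wt1 (-0.634).

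Because BXD strains inherit long stretches of either parent, genes side by side on a chromosome share alleles in most strains. The 6 genes lie on chromosomes 7 (Nphs1), 17 (Cd2ap), 18 (Synpo), 6 (Podxl and Ptpro) and 2 (Wt1). The nearest measured gene on either side was compared with each. Podxl and its neighbour Mkln1, with 0 annotated genes between them, had r = 0.445 (permutation p = 0.0114; rho = 0.404, permutation p = 0.0250; r = 0.501 without 2 strains), but the adjusted p was 0.182. Ptpro and Eps8, an actin regulator, had r = -0.313 (permutation p = 0.0856; rho = -0.419, permutation p = 0.0197; adjusted p = 0.377). The other 10 neighbours had r between -0.300 (Wt1 and Eif3m) and 0.255 (Podxl and 1700012A03Rik).

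Other genes with podocyte roles were taken in 6 lists of 74 genes, of which 61 were measured. Averaged over strains, 19 were higher than C57BL/6J, 13 lower and 29 not past limma's test over all gene means. That is 52.5% called, beside 55.8% of all genes, with a median log2 ratio of 0.06, beside -0.01. Between BXD33-42 and BXD1-32, 0 of 61 passed, beside 0.00662% of all genes.

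Of slit diaphragm and signalling genes, 14 of 18 were measured, with 3 higher, 3 lower and a median of 0.06. Trpc6, a calcium channel that associates with nephrin, was lowest at -0.84 ± 0.127 (SE, n = 31; limma adjusted p = 1.24e-06), below 0 in 28 of 31 strains. The kinase subunit Pik3r1 was at -0.49 and the adaptor Nck1 at -0.24, while the scaffold Iqgap1 was at 0.36. Actin genes were higher for 6 of 11 measured and lower for 1, with a median of 0.13. Arhgap24, which restrains Rac1, was at 0.48 ± 0.0418 (SE, n = 31; limma adjusted p = 4.76e-11), above 0 in 30 of 31 strains. The formin Inf2 was at 0.40 ± 0.0459 and above 0 in all 31 strains (limma adjusted p = 8.30e-09), the capping protein gene Capzb was at 0.27, and Parva, of the integrin-linked complex, was at -0.48.

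Apical genes were 1 higher and 1 lower of 6: Cd34, a sialomucin related to podocalyxin, was at 0.54, and Slc9a3r1, a scaffold of ezrin and membrane proteins, at -0.42. Transcription genes were 2 higher and 3 lower of 7, with Dach1 at -0.34, Tcf21 at -0.25, Pax2 at -0.19 and the cell cycle inhibitor Cdkn1c at 0.20. Of 13 basement membrane and adhesion genes 3 were higher and 3 lower, with dystroglycan (Dag1) at 0.57, the collagen chain Col4a4 at 0.43, nidogen (Nid1) at -0.34 and nephronectin (Npnt) at -0.32. Of 10 secreted, receptor and other genes 4 were higher and 2 lower, with Rhpn1 at 0.43, the Slit receptor Robo2 at 0.23, the growth factor Vegfa at -0.30 and the urokinase receptor Plaur at -0.24. Each named gene passed limma's test. Of the 366 relations of these genes with the 6 podocyte genes, 2 passed the adjustment over all 90555, beside 0.638% of those. Both were of Podxl, which passed with 324 of 15095 genes and followed its spot place. Its r was 0.634 with Vegfa and -0.706 with Trpc6, and the part of spot place in these 2 was not tested.

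**Figure D5:**
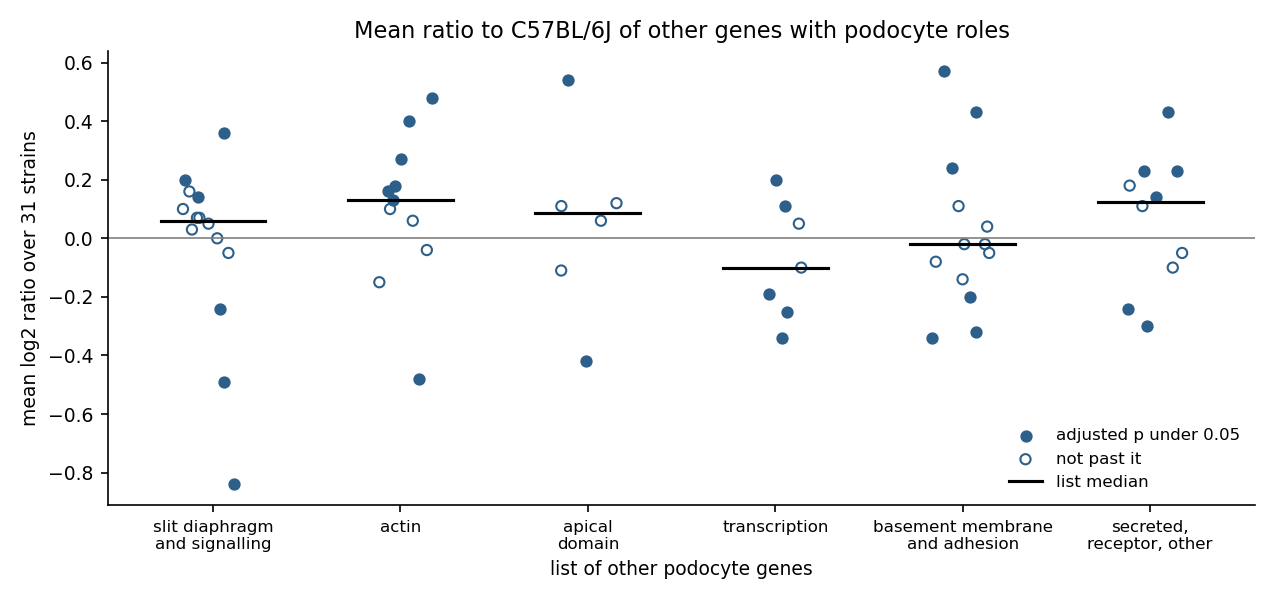
Mean log2 ratio to C57BL/6J over 31 strains (vertical axis) of 61 other genes with podocyte roles, in 6 lists (horizontal axis). Filled points passed limma's test at an adjusted p of 0.05, open points did not, and lines are list medians. The lists scatter on both sides of 0, with medians from -0.10 to 0.13 and Trpc6 lowest at -0.84.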

How the data were processed

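The deposited values are log ratios, taken as log2; base and direction are not stated in the sources used here. Per the submitters' processing notes the authors used R 2.0.0 and limma; the sorted values were identical in every column, so the authors had quantile-normalized the arrays. Signal intensities were not analysed here, so signal over background is unknown, and the number of arrays limits precision. The columns not mapped to a sample were 0.

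The 6 genes, the role lists and the marker lists were chosen with earlier results of these data known. Probes with 1 gene name (16874 of 23040; 134 had several names and 6032 none) were averaged per gene; 16196 probes and all 6 genes were matched by gene number to RefSeq GRCm38.p6, used for names, neighbours and promoters. Means against 0 and BXD33-42 against BXD1-32 were tested with limma 3.58.1 in R 4.3.3 (lmFit, eBayes, two-sided, Benjamini-Hochberg over all probes or genes). Correlations had two-sided permutation p-values (100000 resamples, scipy 1.17.1), and their adjusted p-values used the t approximation over all relations named. On data simulated over all 23040 probes, the test of the mean recovered 60.5% of changes of 0.3 and 94.0% of changes of 0.6. Only 200 probes were changed in these data and in those simulated for the 2 sets. In the real test of the mean 57.5% of probes passed, so its adjustment was less strict than in the simulation.

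Genes were named by rule: every probe of the 6 genes; the 3 genes of highest and the 1 of lowest r with each; the nearest measured neighbours; and up to 4 of the largest called means per role list (6 lists). Alternatives were removal of spot place or of the first principal component, median centring, array weights, a filter on the 10% of probes of smallest SD, other Synpo probes, other strain subsets and each strain left out.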

Additional observations from a re-analysis of the deposited data

Results flagged for a closer look

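Podxl in BXD33 stood apart from the other 6 strains of BXD33-42. Its log2 ratio there was 1.22, and the gap to the next strain was 0.611 of the range of the 7 strains, above Dixon's critical value of 0.568. In BXD1-32, which has too many strains for this test, BXD1 had the same value. The test was run on 8 measures (7 probes and the Synpo mean), and chance alone marks about 1 in 20 such groups. In BXD38 the Synpo mean, at 0.559, and Synpo probe 5467, at 0.534 of the range, stayed below that value. The other spots at the place of the Podxl probe averaged 0.95 in BXD33.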

How the results depend on the processing

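Leaving out each strain in turn kept the direction and call, or a number of calls close to the one reported (such as 3 or 5 against 4), in 561 of 583 values, and the other alternatives did in 180 of 222. The 222 include values that a setting could not change, which raises the share kept. Many of the 583 were not past the test at the main setting, which leaving out 1 strain seldom changed. A count of 3 against 4 was taken as kept, though Podxl lost its call without BXD1 or without BXD33. Every array had the same median, so centring left correlations and set differences as they were. Settings with 1 Synpo probe cannot change pairs without Synpo. Of the 7 probes, 3 to 4 were called against C57BL/6J with 1 strain left out, and 3 to 4 of the 6 genes. With BXD33-42 alone, from 7 arrays, 0 podocyte probes and 0 podocyte genes were called, beside 14.7% of all probes and 11.4% of all genes. Nphs1 stood at -0.06 there. Cd2ap stood at 0.13 in BXD1-32 alone, from fewer arrays (adjusted p = 0.125), and Nphs1 passed without BXD15 and BXD38 (0.10, adjusted p = 0.0474). Ptpro passed with array weights (adjusted p = 0.0353) and with the first principal component removed (adjusted p = 0.0475). The mean of Synpo probe 18174 was -0.01 without BXD31 (range -0.01 to 0.09 with 1 strain left out), and Synpo by its probe of largest SD stood at 0.05. Differences of BXD33-42 minus BXD1-32, 0 of 7 called at every setting run, turned sign for Nphs1 (0.00), Ptpro (0.04) and Wt1 (0.05) with spot place removed, for Synpo probe 5467 without BXD15 and BXD38 (-0.04) and for Podxl with the component removed (0.14). With spot place removed, Cd2ap (0.27, against 0.09) and Podxl (-0.28, against -0.06) differed more between the sets. With 1 strain of BXD33-42 left out they ran from -0.06 to 0.22 for Synpo probe 5467 (turned by BXD38), -0.23 to 0.01 for Podxl (BXD38, BXD42) and -0.16 to 0.09 for Ptpro (BXD39). Array weights called 116 of all probes between the sets, against 2. Pairs of genes with an unadjusted p under 0.05 numbered 3 by Spearman, 2 with spot place removed (Synpo and Podxl -0.497, Synpo and Ptpro 0.398), 1 in BXD1-32 alone (Podxl and Ptpro -0.484), 1 with the probe of largest SD or the second Synpo probe (Synpo and Podxl -0.363), 1 with the first Synpo probe, and 0 to 2 with 1 strain left out (above 0 without BXD6, BXD9, BXD21, BXD23, BXD33, BXD38 or BXD39), against 0. By Pearson r in the main setting, 18.2% of all pairs of genes passed that unadjusted threshold. Cd2ap and Synpo turned to 0.0662 with the second Synpo probe or the probe of largest SD, and Synpo and Podxl to 0.0127 with the first. The 2 Synpo probes correlated at 0.155 with spot place removed, at 0.119 without BXD31 and at 0.102 by Spearman. The cause of these changes was not tested. Wt1 has no value under the filter on the smallest SDs, which leaves its probe out. The settings without BXD31 and with 1 Synpo probe alone were chosen after seeing the data. No paired analysis was possible because the 2 sets share no strain number. Depth is given by no file; signal over background was not analysed here.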
